A study of Mus musculus with 8 samples.

Results

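The 10 genes described here encode surface proteins by which flow cytometry divides mouse blood stem and progenitor cells: Slamf1 (CD150), Cd48, Cd244, Ly9, Cd34, Fcgr3 and Fcgr2b (the Fc receptors CD16 and CD32), Flt3, Ly6a (Sca1) and Cd27. They were taken by name from a bulk RNA-seq table of 15576 genes, in which 9 were found under the symbol given and Cd244 under its current symbol Cd244a, and all 10 were among the 11937 genes tested. The libraries came from bone marrow cells that the labels call stem cells and the study leukemic stem cells (LSCs), 4 from untreated mice with chronic myeloid leukemia (CML) and 4 from CML mice given the tyrosine kinase inhibitor imatinib (CML-TKI). All 8 came from mice of the strain label C57BL/6, and the study's methods describe the BCR-ABL×SCL-tTA cross, a double transgenic in which a Scl-driven transactivator switches BCR-ABL on in stem cells once tetracycline is withdrawn, so the untreated controls carry the oncogene too. By the labels the CML-TKI mice had 400 mg/kg imatinib by gavage every other day, for 4 weeks in one field and 30 days in another. The paper's legend for the RNA-seq of these LSCs names a lower dose, so the dose behind these libraries is uncertain. The paper gives an age for transplant recipients, but whether these libraries came from primary or transplanted mice, at what age and from how many mice each was not given in the sources used here, so p-values measure only the spread between these samples. The same sort gate is labelled for all 8 libraries, Lin-Sca1+cKit+Flt3-CD150-CD48+, while the paper describes LSCs by the opposite CD150+CD48- phenotype. A gate reads surface protein and the counts read RNA.

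As background, CD150, CD48, CD244 and Ly9 belong to the signaling lymphocytic activation molecule (SLAM) family of immunoglobulin-type receptors. CD48 is the ligand of CD244, and CD150 binds itself on neighbouring cells. In mouse marrow, CD150 without CD48 marks the cells richest in long-term stem cell activity, CD48 without CD150 marks later multipotent progenitors, and CD244 is another progenitor marker. Within committed myeloid progenitors, CD34 and the Fc receptors CD16/32 separate common myeloid, granulocyte-monocyte and megakaryocyte-erythroid progenitors, while Sca1 with Kit defines the LSK fraction and Flt3 marks its lymphoid-primed cells.

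The libraries held 4939644 to 8620101 counts in CML and 1041552 to 5104268 in CML-TKI, with CML-TKI 3 the smallest. A floor of 3 counts corresponded to 0.409 to 0.580 CPM in CML and to 0.570 to 3.29 CPM in CML-TKI, where CPM is counts per 1000000 after TMM scaling of library sizes. One CML column carries the number 5, which no label gives, and is called CML 5. Counts of CML 1, 2 and 3 differed from each other by 3.56 to 4.79 in chi-square per degree of freedom, against 51.3 to 55.3 between each of them and CML 5 and 23.9 to 60.6 among CML-TKI libraries. Whether CML 1, 2 and 3 are independent samples was not given in the sources used here, so n = 4 may overstate the CML group. Results were also read with CML 1 to 3 summed as 1 library. Then 122 genes in all and 3 of the 10 were called, against 1220 and 7 with all 8 libraries apart. The name stem cells was checked against marker genes, and for the CML-TKI libraries the markers went against it. Marker lists of stem cells and of other marrow cells were read as well, although a Lin- Sca1+ sort would remove mature blood cells and most granulocyte progenitors. By edgeR at an adjusted p of 0.05, 10.2% of all tested genes were called, 6.29% higher and 3.93% lower. Of the stem cell markers, 4 of 9 tested were lower and none higher, and their summed level ran from 1174 to 1514 CPM in CML and from 69.1 to 451.9 CPM in CML-TKI, highest in CML-TKI 1. All 8 granulocyte progenitor markers were higher (summed 31.8 to 93.6 CPM in CML, 1358 to 7697 CPM in CML-TKI), as were 7 of 8 monocyte and macrophage markers (16.4 to 36.3 CPM and 769.2 to 4124 CPM) and 6 of 8 mature neutrophil markers (129.1 to 214.7 CPM and 167.9 to 2233 CPM). The megakaryocyte list had 2 of 6 lower (1211 to 1427 CPM and 52.1 to 576.0 CPM), the endothelial list 1 of 4 lower (83.2 to 193.4 CPM and 43.3 to 114.0 CPM), and the basophil and mast cell list its 1 tested gene higher (2.06 to 4.05 CPM and 4.38 to 1164 CPM, highest in CML-TKI 4). By edgeR no erythroid, T, B, NK or dendritic cell marker passed the threshold, of 6, 2, 1, 2 and 1 tested, with 4, 0, 0, 1 and 0 at an unadjusted p under 0.05. DESeq2 called 0, 0, 0, 1 and 0 of them and limma-voom 1, 0, 0, 1 and 0. In CML-TKI 3 the summed levels of these lists were 49345, 116.2, 287.2, 128.2 and 34.0 CPM, each the highest of all libraries, against CML ranges of 56.4 to 130.3, 6.18 to 10.4, 18.0 to 23.4, 15.1 to 31.2 and 3.57 to 9.66 CPM. With 1 library left out, 2 to 8 stem cell and 0 to 7 mature neutrophil markers were called, for both lists 3 or fewer without any library other than CML-TKI 1 and the most without CML-TKI 1, and 0 to 5 basophil, 0 to 4 erythroid and 1 to 4 megakaryocyte markers. The number called over all tested genes moved too, from 505 without CML 1 to 2504 without CML-TKI 1. With CML 1 to 3 summed, none of the stem cell, mature neutrophil, megakaryocyte, endothelial or basophil markers was called, against 6 of 8 granulocyte progenitor and 5 of 8 monocyte markers. In bulk RNA, fewer cells of a type and less RNA per cell cannot be told apart, and the part of other cells in the results was not tested.

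Of the 10 genes, 5 were higher in CML-TKI libraries (Fcgr3, Fcgr2b, Cd48, Cd244a and Ly9), 2 were lower (Slamf1 and Cd27) and 3 did not pass the threshold (Cd34, Ly6a and Flt3) at an adjusted p of 0.05 (quasi-likelihood test of edgeR, Benjamini-Hochberg adjusted over all tested genes). Over all tested genes 10.2% were called, 6.29% higher and 3.93% lower. With library totals taken without the ribosomal gene Rn45s in place of TMM, 601 genes were called higher and 585 lower, against 751 and 469, and the same 7 of the 10 were called. Every CML-TKI library was above every CML library for 5 of the 10 and below for 3, where over all tested genes 10.3% were above, 13.1% below and 23.4% did either. The median size of the log2 fold change was 2.77 over the 10 genes and 0.52 over all tested genes. CML-TKI 1 was the CML-TKI library nearest to the CML mean for 7 of the 10.

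**Figure D1:**
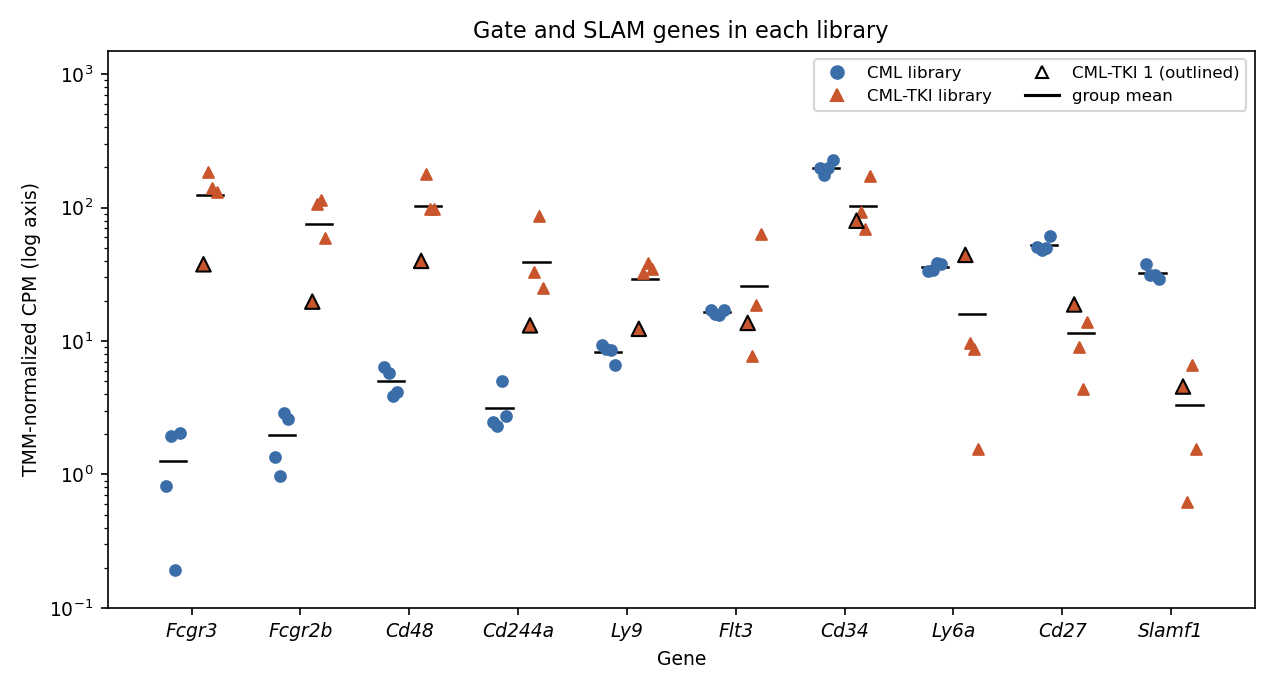
Level of each of the 10 genes in each library, as TMM-scaled CPM on a log axis, with 4 CML and 4 CML-TKI libraries per gene. The groups are apart for Slamf1, Cd48, Cd244a, Ly9, Fcgr3, Fcgr2b, Cd34 and Cd27 and overlap for Flt3 and Ly6a.

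The stem cell SLAM gene fell and its progenitor counterpart rose. Slamf1, on chromosome 1 of GRCm38 from 171767131 to 171801184, had 37.7, 31.5, 31.3 and 29.01 CPM in CML 1, 2, 3 and 5 and 4.56, 0.620, 6.58 and 1.56 CPM in CML-TKI 1 to 4. The CML libraries lay close together and far above all the CML-TKI libraries, in which only 24, 2, 6 and 6 counts were behind these levels, so that CML-TKI 2 was under the floor. Slamf1 was 10.7-fold lower in CML-TKI libraries (32.4 ± 3.74 against 3.33 ± 2.74 CPM, SD, n = 4 each, log2 fold change -3.42, standard error 0.61, adjusted p = 0.00797 by edgeR). Cd48, from 171681245 to 171705258 on the same chromosome, had 6.40, 5.79, 3.86 and 4.12 CPM in the CML libraries and 39.9, 178.2, 97.5 and 97.6 CPM in CML-TKI 1 to 4. The lowest CML-TKI library, CML-TKI 1, was still well above the highest CML library. Cd48 was 20.3-fold higher (5.05 ± 1.24 against 103.3 ± 56.9 CPM, SD, n = 4 each, log2 fold change 4.35, standard error 0.47, adjusted p = 8.70e-04 by edgeR). Summing CML 1 to 3 as 1 library ended the call of Slamf1 (adjusted p = 0.134) and kept that of Cd48 (adjusted p = 0.0340).

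The balance of the pair within each library does not depend on scaling between libraries. The log2 ratio of Cd48 to Slamf1 counts, each plus 0.5, was -2.55, -2.42, -2.99 and -2.79 in CML 1, 2, 3 and 5, and 3.10, 7.85, 3.78 and 5.85 in CML-TKI 1 to 4. Slamf1 counts exceeded Cd48 counts in every CML library and the reverse held in every CML-TKI library. The group means were -2.69 ± 0.25 and 5.15 ± 2.15 (SD, n = 4), a difference of 7.83, which was 7.44 with 2 counts added in place of 0.5, 6.93 without CML-TKI 2 and 8.51 without CML-TKI 1. A ratio of counts also carries the lengths of both transcripts, which are the same in both groups, so only the difference between groups compares levels. The sort label, CD150- and CD48+, was the same for both groups, but it conflicts with the paper's LSC phenotype, and whether both groups passed through the same gate cannot be told from the sources used here. A difference in the gate and a difference in the cells therefore cannot be told apart.

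**Figure D2:**
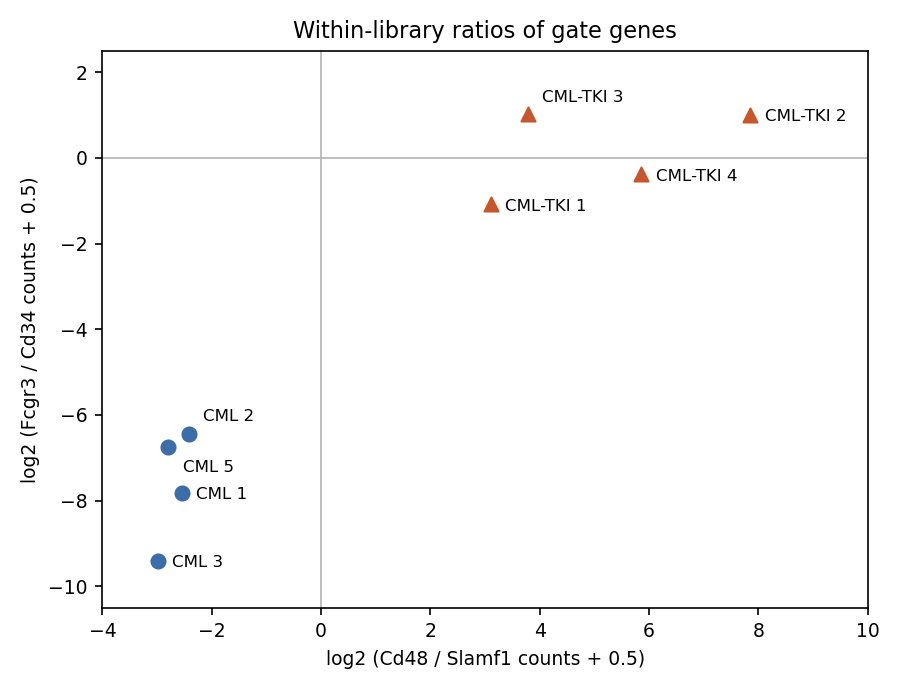
Log2 ratios of counts within each library. The Cd48 to Slamf1 ratio lies below 0 in all 4 CML libraries and above 0 in all 4 CML-TKI libraries, the Fcgr3 to Cd34 ratio is higher in every CML-TKI library, and the Fcgr3 to Fcgr2b ratio overlaps.

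Cd48 and Slamf1 lie close together on chromosome 1, with 61.9 kb between them, so the 250 bases before the start of each are shown from RefSeq (GRCm38.p6, plus strand), to set the promoters of nearby genes that moved in opposite directions side by side. RefSeq held such a window for 8 of the 10 genes. The Cd48 window, chr1:171681742-171681991, precedes the start of 1 transcript and lies inside the span of the gene, and the Slamf1 window is chr1:171766882-171767131. Capitals mark matches, on either strand, to 4 motifs that were searched: GGAA, the core of ETS sites, TGTGGT for RUNX, AGATAA for GATA factors and CAGCTG, an E-box. None of the 4 overlapped another here.
Slamf1: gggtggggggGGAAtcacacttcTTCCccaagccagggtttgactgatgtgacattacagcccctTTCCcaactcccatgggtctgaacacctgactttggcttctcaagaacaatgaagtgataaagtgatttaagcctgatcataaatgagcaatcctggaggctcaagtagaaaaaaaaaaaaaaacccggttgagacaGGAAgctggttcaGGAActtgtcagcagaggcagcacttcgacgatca
Cd48: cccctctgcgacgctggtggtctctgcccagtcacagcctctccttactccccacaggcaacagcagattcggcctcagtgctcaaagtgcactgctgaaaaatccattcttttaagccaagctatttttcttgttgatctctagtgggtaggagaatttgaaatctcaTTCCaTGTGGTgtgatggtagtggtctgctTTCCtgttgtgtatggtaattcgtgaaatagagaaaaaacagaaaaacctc
The Slamf1 window held GGAA 5 times and the other motifs not at all, and the Cd48 window held GGAA 2 times and TGTGGT once. Of 32851 mouse promoter windows of this length, 93.4% held GGAA, 14.0% TGTGGT, 9.99% AGATAA and 13.001% CAGCTG. G and C made up 47.2% of the Slamf1 window and 46.0% of the Cd48 window.

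The other SLAM genes among the 10 moved with Cd48 rather than with Slamf1. Cd244a, the receptor for CD48, from 171558718 to 171585316 on chromosome 1, had 2.45, 2.32, 5.02 and 2.75 CPM in the CML libraries and 13.1, 33.2, 86.6 and 25.0 CPM in CML-TKI 1 to 4. Every CML-TKI library was above every CML library, and CML-TKI 3 was the highest. The gene was 12.3-fold higher (3.14 ± 1.27 against 39.5 ± 32.5 CPM, SD, n = 4 each, log2 fold change 3.62, standard error 0.62, adjusted p = 0.00655 by edgeR). The call held whichever library was left out and ended with CML 1 to 3 summed (adjusted p = 0.106). Without CML-TKI 3, in which the summed erythroid, T, B, NK and dendritic cell markers were also the highest, the log2 fold change was 2.93 (adjusted p = 0.00895), and the part of those cells was not tested. Ly9, which encodes CD229 and lies between Cd244a and Cd48 (171588613 to 171607410), had 9.40, 8.69, 8.503 and 6.60 CPM in the CML libraries and 12.3, 32.2, 38.4 and 34.6 CPM in CML-TKI 1 to 4. CML-TKI 1 lay just above the CML libraries and apart from the other CML-TKI libraries. Ly9 was 3.51-fold higher (8.30 ± 1.195 against 29.4 ± 11.6 CPM, SD, n = 4 each, log2 fold change 1.81, standard error 0.41, adjusted p = 0.0214 by edgeR). The call ended without any 1 of the CML libraries or without CML-TKI 4, with adjusted p between 0.0514 and 0.0714, and also with CML 1 to 3 summed (adjusted p = 0.240).

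Of 13 further SLAM family genes and SLAM adaptors, 11 were in the table and 5 had enough counts to be tested. None of these 5, which were the receptor gene Cd84, the kinase gene Fyn and the phosphatase genes Ptpn6, Ptpn11 and Inpp5d, passed the threshold by edgeR, with 1 at an unadjusted p under 0.05, 0 called by DESeq2 and 2 by limma-voom. Without CML-TKI 1, edgeR called 2 of the 5, 1 higher and 1 lower. Their median log2 fold change was -0.21. Cd84, the nearest SLAM gene beyond Slamf1 that was tested, had 106.5 ± 33.0 CPM in CML and 90.8 ± 30.7 CPM in CML-TKI libraries (SD, n = 4 each, log2 fold change -0.24, standard error 0.33, adjusted p = 0.693 by edgeR).

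The Fc receptor genes of the myeloid progenitor gate had the largest fold changes of the 10. Antibodies against CD16/32 detect the products of both genes, of which Fcgr3 encodes an activating receptor and Fcgr2b the inhibitory one. Fcgr3, on chromosome 1 from 171051169 to 171065915, had 0.817, 1.93, 0.193 and 2.06 CPM in the CML libraries and 37.6, 183.8, 140.3 and 131.9 CPM in CML-TKI 1 to 4. The gene was near the floor in CML and well counted in every CML-TKI library. It was 95.3-fold higher (1.25 ± 0.90 against 123.4 ± 61.5 CPM, SD, n = 4 each, log2 fold change 6.58, standard error 0.69, adjusted p = 8.70e-04 by edgeR). Fcgr2b, from 170960558 to 170976071, had 1.36, 0.965, 2.90 and 2.61 CPM in the CML libraries and 19.8, 107.2, 114.0 and 58.8 CPM in CML-TKI 1 to 4. CML-TKI 1 was the lowest of its group for both genes and still above all CML libraries. Fcgr2b was 37.4-fold higher (1.96 ± 0.94 against 74.9 ± 44.2 CPM, SD, n = 4 each, log2 fold change 5.23, standard error 0.63, adjusted p = 0.00126 by edgeR). The monocyte and granulocyte progenitor lists rose in the same libraries, with CML-TKI 1 again the lowest of its group.

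The separate values of these genes are uncertain, because they share sequence and the counting divided reads between them. Each had a count that was not whole in all 8 libraries, while the sum of both was whole to within 0.002 in all 8, at 16, 15, 16 and 34 counts in CML and 302, 939, 232 and 733 in CML-TKI. Their coding sequences in GRCm38, of 804 bases for Fcgr3 and 1023 for Fcgr2b, were identical at 659 of 787 aligned bases (83.7%). Of the 50-base words, 166 were shared, 21.99% of those of Fcgr3 and 17.04% of those of Fcgr2b. The longest identical stretch, 129 bases, is shown because a read pair wholly inside it cannot be assigned to either gene by its sequence. It covers coding bases 263 to 391 of Fcgr3, minus strand, over an intron within chr1:171054167-171057792, and coding bases 278 to 406 of Fcgr2b, minus strand, over an intron within chr1:170966674-170968081, in exons 3 and 4 of both.
Fcgr3 and Fcgr2b: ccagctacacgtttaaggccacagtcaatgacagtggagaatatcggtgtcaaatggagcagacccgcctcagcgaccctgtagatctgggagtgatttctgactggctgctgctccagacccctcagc
Fcgr3 took 36.1%, 64.5%, 7.94% and 44.0% of the summed counts in the CML libraries, where the sums were small, and 65.4%, 63.2%, 55.3% and 69.2% in CML-TKI 1 to 4. The log2 ratio of Fcgr3 to Fcgr2b was -0.86 ± 1.81 in CML and 0.79 ± 0.37 in CML-TKI libraries (SD, n = 4), and the groups overlapped. The summed counts, an alternative chosen after seeing the data, do not depend on the division. They came to 2.18, 2.90, 3.09 and 4.67 CPM in the CML libraries and 57.4, 291.0, 254.3 and 190.7 CPM in CML-TKI 1 to 4. The sum was 60.9-fold higher in CML-TKI libraries (3.21 ± 1.05 against 198.3 ± 102.7 CPM, SD, n = 4 each, log2 fold change 5.93, standard error 0.55, adjusted p = 5.39e-04 by edgeR).

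Among 13 other Fc receptor genes, 10 were in the table and 3 were tested, of which 2 were higher and 1 did not pass the threshold. Over all tested genes 6.29% were called higher. Fcer1g, the signaling chain that activating Fc receptors share, had 1.97 ± 0.78 CPM in CML and 21.8 ± 12.7 CPM in CML-TKI libraries (SD, n = 4 each, log2 fold change 3.43, adjusted p = 0.00840 by edgeR). Fcgr1, the high-affinity receptor for immunoglobulin G, had a log2 fold change of 3.74 (adjusted p = 0.0473). Fcgrt, the neonatal Fc receptor that recycles immunoglobulin, had one of -1.65 (adjusted p = 0.150). The median of the 3 was 3.43. The number called was 1 without CML 1, CML 2, CML 5 or CML-TKI 2, and 3 of 5 tested, all higher, without CML-TKI 3. It was 0 of 6 tested with CML 1 to 3 summed and 0 of 1 tested with libraries thinned to the smallest total.

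Cd34, the sialomucin that separates myeloid progenitor fractions together with CD16/32, moved less. On chromosome 1 from 194938821 to 194961292, it had 199.1, 176.2, 197.1 and 227.0 CPM in the CML libraries and 79.8, 92.04, 69.0 and 172.0 CPM in CML-TKI 1 to 4. Every CML-TKI library was below every CML library, CML-TKI 4 only slightly. The estimated counts of Cd34 were not whole in 7 libraries, and no gene was found whose counts completed them. The group means of 199.9 ± 20.8 and 103.2 ± 46.8 CPM (SD, n = 4 each) differed by less than the test required (log2 fold change -0.95, standard error 0.29, adjusted p = 0.0718 by edgeR). Without CML-TKI 4, in which the basophil and mast cell list was highest, the log2 fold change was -1.31 and passed it (adjusted p = 0.0113), as it did with DESeq2 (adjusted p = 0.0139) and limma-voom (adjusted p = 0.0326). Within libraries, the log2 ratio of Fcgr3 to Cd34 was -7.81, -6.44, -9.41 and -6.74 in CML and -1.08, 0.996, 1.02 and -0.38 in CML-TKI 1 to 4. The ratio was far lower in every CML library than in any CML-TKI library, and the CML-TKI ratios lay on both sides of 0. The mean ratios were -7.60 ± 1.34 and 0.14 ± 1.04 (SD, n = 4), a difference of 7.74, which was 7.13 without CML 3, where Fcgr3 was under the floor.

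Cd27, a receptor of the tumor necrosis factor family on stem cells, progenitors and lymphocytes, fell with Slamf1. On chromosome 6 from 125232620 to 125237136, it had 50.7, 48.3, 49.7 and 60.9 CPM in the CML libraries and 18.8, 8.99, 4.38 and 13.8 CPM in CML-TKI 1 to 4. The groups were wide apart, and the lowest library, CML-TKI 3, had 4 counts. Cd27 was 4.37-fold lower (52.4 ± 5.77 against 11.5 ± 6.21 CPM, SD, n = 4 each, log2 fold change -2.13, standard error 0.39, adjusted p = 0.00869 by edgeR). The call ended with CML 1 to 3 summed (adjusted p = 0.120).

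The genes of Sca1 and Flt3 varied widely among CML-TKI libraries, and the groups overlapped. Ly6a, which encodes Sca1, on chromosome 15 from 74994877 to 74998031, had 33.2, 34.0, 38.5 and 38.1 CPM in the CML libraries and 44.3, 9.61, 8.77 and 1.56 CPM in CML-TKI 1 to 4. CML-TKI 1 was above all CML libraries and the other CML-TKI libraries were below all of them. With 35.9 ± 2.72 against 16.0 ± 19.1 CPM (SD, n = 4 each), the log2 fold change of -1.12 (standard error 0.73) did not pass the threshold (adjusted p = 0.373 by edgeR). Without CML-TKI 1 it was -2.52 (standard error 0.55) and passed it (adjusted p = 0.0117), and with limma-voom it was -2.42 (adjusted p = 0.0257). CML-TKI 1 was also the CML-TKI library with the highest summed level of stem cell markers and the lowest of granulocyte progenitor and monocyte markers. Flt3, the receptor for the Flt3 ligand, on chromosome 5 from 147330741 to 147400489, had 17.2, 16.0, 15.7 and 17.2 CPM in the CML libraries and 13.7, 7.75, 18.6 and 63.2 CPM in CML-TKI 1 to 4. The CML libraries were nearly equal, and of the CML-TKI libraries CML-TKI 4 was far above them, CML-TKI 3 slightly above and CML-TKI 1 and 2 below. The log2 fold change of 0.65 (standard error 0.58, 16.5 ± 0.79 against 25.8 ± 25.3 CPM, SD, n = 4 each) did not pass the threshold (adjusted p = 0.522 by edgeR), and without CML-TKI 4 it was -0.34. All 8 libraries, labelled as sorted Flt3-, held Flt3 RNA above the floor of 3 counts.

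**Figure D3:**
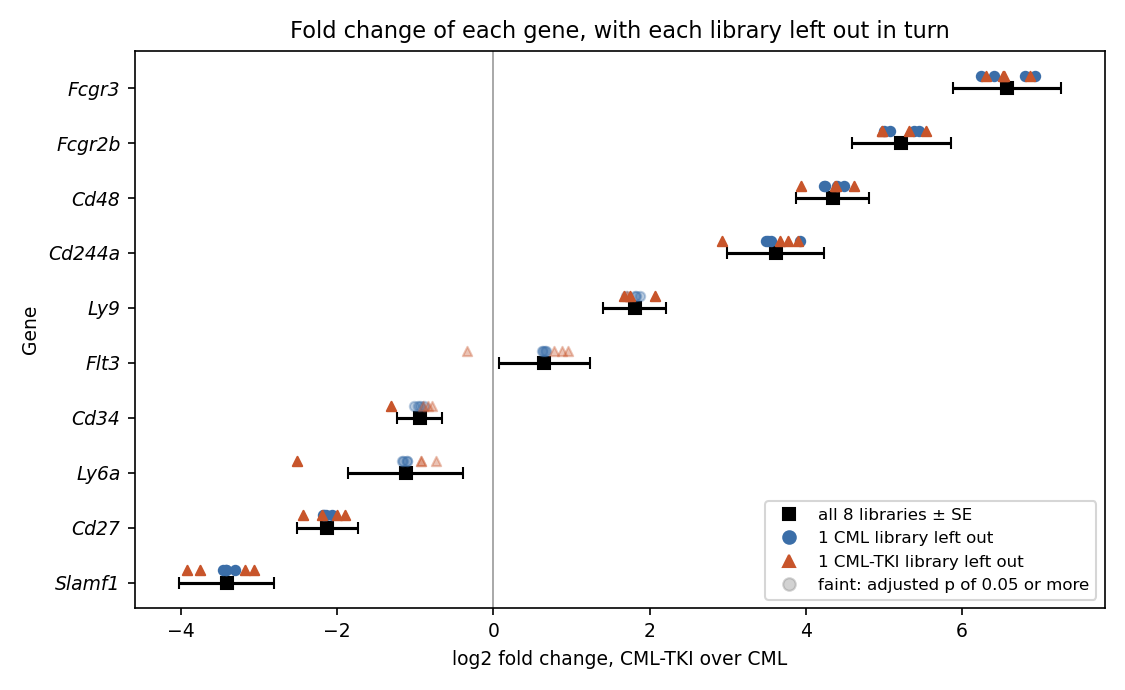
Log2 fold change (CML-TKI over CML) of each of the 10 genes fitted on all 8 libraries and on each set of 7. The fold changes of Flt3 lie between -0.34 and 0.96, on both sides of 0, while the other 9 genes keep their direction, with Ly6a running from -2.52 to -0.73.

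Genes related to the gate proteins were read as lists, beside a share of 6.29% higher and 3.93% lower over all tested genes. Of 13 other Ly6 family genes 8 were in the table and 4 tested, 2 of them higher and none lower, with a median log2 fold change of 3.11. Ly6c2, the monocyte Ly6C antigen gene, had 4.04 ± 1.38 CPM in CML and 450.0 ± 241.9 CPM in CML-TKI libraries (SD, n = 4 each, log2 fold change 6.80, adjusted p = 5.41e-04 by edgeR), and Ly6c1 had a log2 fold change of 5.41 (adjusted p = 0.00960) with no count in CML 1 and 2. Both are close paralogs, so their separate counts are uncertain. With CML 1 to 3 summed, 1 gene of this list was called.

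Of 18 other surface genes of stem and progenitor gates, 16 were tested, 3 were higher, 4 lower and 9 not called, with a median log2 fold change of -0.57. Kit, the stem cell factor receptor of the LSK gate, had 1008, 958.1, 1023 and 764.0 CPM in the CML libraries and 277.9, 194.3, 290.4 and 231.3 CPM in CML-TKI 1 to 4. The groups were far apart, with little spread within CML-TKI (938.4 ± 119.6 against 248.5 ± 44.2 CPM, SD, n = 4 each, log2 fold change -1.92, standard error 0.21, adjusted p = 8.70e-04 by edgeR). Itga2b (CD41, of megakaryocytes and early progenitors, log2 fold change -2.01, adjusted p = 0.0263), Eng (endoglin, -2.48, adjusted p = 0.0215) and Tek (the angiopoietin receptor, -3.55, adjusted p = 0.0184) were lower too. Csf1r, the receptor of the macrophage growth factor, and Cx3cr1, a chemokine receptor of monocytes, were among the higher, with log2 fold changes of 6.75 (adjusted p = 5.49e-04) and 6.18 (adjusted p = 0.0147). The number called was 4, 3, 4 and 4 without CML 1, 2, 3 and 5 and 11 without CML-TKI 1. Over all tested genes 1220 (10.2%) were called. That number was 505, 552, 570 and 808 without these CML libraries and 2504 without CML-TKI 1. With CML 1 to 3 summed, 2 genes of the list were called, 1 higher and 1 lower, and 122 over all tested genes.

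Of the 10 genes, 7 lie on chromosome 1, and 6 of those lie in a stretch of 988.4 kb from Fcgr2b to Slamf6 that holds 36 genes listed as protein-coding by RefSeq, of which 23 were tested. In this stretch 8 genes were higher, 1 was lower and 14 did not pass the threshold, where 10.2% of all tested genes were called. The stretch was set by the positions of genes already known to differ. The higher genes included Fcgr2b, Fcgr3, Cd244a, Ly9 and Cd48, and Slamf1 was the lower one. Fcer1g, also higher, lies in the same stretch. The other called genes of the stretch were Arhgap30 (log2 fold change 1.21, adjusted p = 0.0153) and B4galt3 (1.06, adjusted p = 0.0291), and the largest differences that did not pass were those of Nectin4 (-3.18, adjusted p = 0.0838) and F11r (-2.06, adjusted p = 0.275), all chosen after their values were seen. Slamf1 was the 1 gene called lower, and Cd244a, Ly9 and Cd48, the 3 SLAM genes tested on its Fc receptor side, were called higher.

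**Figure D4:**
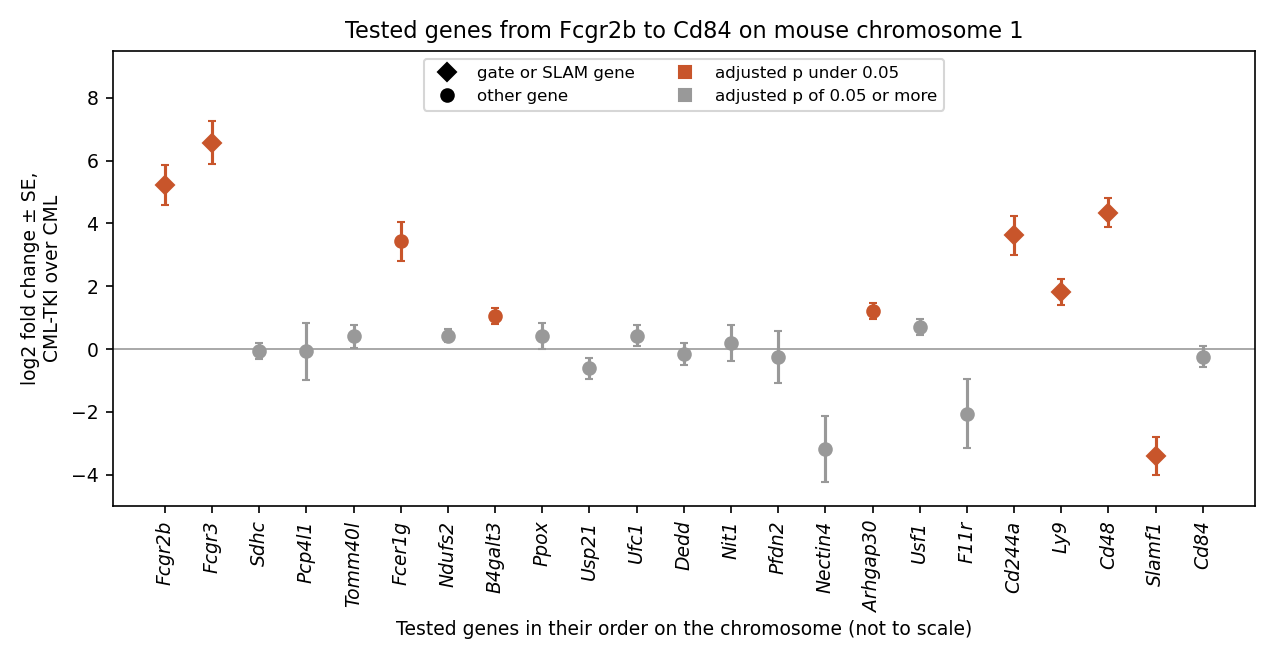
Log2 fold change with its standard error (CML-TKI over CML) of the 23 tested protein-coding genes of the stretch, in their order on the chromosome and not to scale. Diamonds mark the gate and SLAM genes, color marks an adjusted p under 0.05, and Slamf1 at -3.42 stands beside Cd48 at 4.35, Ly9 at 1.81 and Cd244a at 3.62.

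Levels were compared between genes as CPM per kb of annotated exon. The places of Fcgr3 and Fcgr2b are uncertain, because reads were divided between them and their exon lengths differ (1736 and 5790 bases). In CML libraries the order was Ly6a (29.8 ± 2.25), Cd34 (27.4 ± 2.86), Cd27 (22.5 ± 2.48), Slamf1 (5.26 ± 0.61), Cd48 (4.24 ± 1.05), Flt3 (2.67 ± 0.13), Ly9 (2.51 ± 0.36), Fcgr3 (0.720 ± 0.518), Cd244a (0.643 ± 0.261) and Fcgr2b (0.338 ± 0.162, SD, n = 4 for each). Neighbours in this order lay within their spread, except for the gaps between Cd27 and Slamf1, between Cd48 and Flt3 and between Ly9 and Fcgr3. In CML-TKI libraries Cd48 (86.9 ± 47.8) and Fcgr3 (71.1 ± 35.5) led, followed by Cd34 (14.2 ± 6.42), Ly6a (13.3 ± 15.9), Fcgr2b (12.9 ± 7.64), Ly9 (8.89 ± 3.52), Cd244a (8.09 ± 6.66), Cd27 (4.94 ± 2.67), Flt3 (4.18 ± 4.10) and Slamf1 (0.541 ± 0.445). Neighbours in this second order overlapped within their spread, except that Fcgr3 stood above Cd34. Slamf1 thus stood just above Cd48 in CML libraries, while in CML-TKI libraries Cd48 led the order and Slamf1 closed it.

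The tested genes whose pattern over the 8 libraries was most like that of Slamf1, by the root mean square difference of log2 CPM after each gene's mean was removed, were Pglyrp2 (0.38), Sfrp1 (0.38), Coq8a (0.40) and Rbpms (0.41), against a standard deviation of 2.04 for Slamf1 itself. For Cd48 they were Ccr1 (0.30), Gapt (0.33), Cst7 (0.33) and Cfp (0.36), against 2.27. These values describe 8 libraries that share the same group difference.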

How the data were processed

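Sorted cells named LSCs by the study were profiled by bulk RNA-seq in 4 CML and 4 CML-TKI libraries. RNA from RNeasy Plus columns went into Nextera XT libraries, and reads were aligned to mm10 and quantified against RefSeq transcripts, for which the submitters' processing notes name STAR 2.6.1d and Partek 8.0. The values the authors deposited are estimated counts per gene, not normalized, so reads of similar genes are divided by a model. Whether counting used strand is not given in the sources used here.

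Counts were rounded and tested with edgeR 4.0.16 in R 4.3.3 (TMM, filterByExpr with minimum count 10 and minimum total count 15, robust quasi-likelihood test, Benjamini-Hochberg adjustment, threshold 0.05). The code was run on simulated data with independent libraries and the same variability throughout. That run does not cover libraries as unevenly alike as these. Standard errors are the log2 fold change over the square root of F. Fold changes are fitted. Log2 CPM used a prior count of 2. Coordinates and promoters came from RefSeq, and exon lengths and coding sequences from GENCODE (both GRCm38). Intervals and floors cover counting error only.

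The members and lists were chosen with earlier results of these data known. Named genes were all 10 members, at most 6 called genes per related list plus Kit and Itga2b, at most 2 top genes per marker list, and the 4 genes most like Slamf1 and Cd48. Other genes named (Cd84, Fyn, Ptpn6, Ptpn11, Inpp5d, Fcgrt, Arhgap30, B4galt3, Nectin4 and F11r) were chosen after their values were seen. Alternatives were DESeq2 1.42.0, limma-voom 3.58.1 with quality weights, other scalings, filters, thresholds, thinning, a replicate block and leaving out libraries. One related list is not reported here.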

Additional observations from a re-analysis of the deposited data

Results flagged for a closer look

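Ly9 in CML-TKI 1 stood apart from its group, at 12.3 CPM against 32.2, 38.4 and 34.6 CPM in the other CML-TKI libraries. The gap to the nearest library was 0.839 of the group's range, above Dixon's 95% critical value for 4 samples. Each of the 10 genes was tested in both groups, and this was the 1 that stood apart in 20 tests, where chance gives about 1 in 20.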

How the results depend on the processing

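The number of genes called over all tested genes was 1220, and it was 2157 with DESeq2, 2544 with limma-voom, 122 with CML 1 to 3 summed, 395 at a threshold of 0.01, and between 505 and 2504 with 1 library left out. It was 505 without CML 1, 552 without CML 2, 570 without CML 3, 808 without CML 5 and 2504 without CML-TKI 1. The split was 751 higher and 469 lower, and 601 and 585 with totals without Rn45s, which moved the median over all genes by -0.14 on the log2 scale. No member changed direction under that scaling. Of the 10 genes 7 were called, between 6 and 8 with 1 library left out, 8 with DESeq2, 9 with limma-voom, and 3 with CML 1 to 3 summed (Cd48, Fcgr3 and Fcgr2b). Flt3 ran from -0.34 (reversed, without CML-TKI 4) to 0.96 with 1 library left out. Depth limits Slamf1 in CML-TKI 2, 3 and 4, Ly6a in CML-TKI 3 and 4 and Cd27 in CML-TKI 3, and in CML Fcgr3 in all 4 libraries and Fcgr2b most in CML 2, on which the largest fold changes rest. The causes were not tested.

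Libraries 1 to 3 share numbers between groups, but deviations of same-numbered libraries correlated at -0.022, 0.15 and 0.091, not all above 0.1, so the numbers were not taken to pair them. As a hint from the data and not the design, 4 of 6 libraries correlated best with their own number. With a replicate block over these libraries 165 genes and 3 of the 10 (Cd48, Fcgr3 and Fcgr2b) were called, and without the block, an alternative chosen after seeing the data, 589 genes and 5 of the 10 (these 3, Cd244a and Cd34). Flt3 was -0.38 with the block and -0.30 without it.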
